A study of Mus musculus with 48 samples.

Results

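The muscle-type miRNAs miR-1, miR-133a, miR-133b and miR-206 were followed across the mouse brain. On the array they are named mmu-miR-1, mmu-miR-133a, mmu-miR-133b and mmu-miR-206, and they are 4 of the 1023 mouse miRNAs it measures. They were taken by name, and miR-206 was chosen by its measured levels in whole brain, where it rose with cerebellum genes, so its levels there are described without a test. The set was proposed with results of these arrays in view, so the p-values of the other members are not independent evidence. The arrays came from male wild-type (WT) C57BL/6J mice and male Tg2576 mice, labelled as strain Tg(APPSWE)2576Kha, which express the Swedish mutant of human amyloid precursor protein under the hamster prion protein promoter and are used as a model of Alzheimer's disease. Mice were 10 or 17 months old, and total RNA came from the cortex or from the whole brain. Each of the 8 groups of genotype, age and tissue held 3 miRNA arrays and 3 mRNA arrays, 24 of each kind. Whether arrays of the same group and replicate number share an RNA sample is not stated in the labels. The labels do not say whether the cortex and the whole brain samples came from the same or from different mice, and the description of the tissue dissection used here covers the cortex only.

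miRNAs are short RNAs that guide Argonaute proteins to partly complementary sites in mRNAs, and bases 2 to 8, the seed, set most of that pairing. miR-1 and miR-206 share a seed, and so do miR-133a and miR-133b. miR-1 and miR-133 are transcribed as pairs in heart and skeletal muscle, where they act on the growth and differentiation of muscle cells. miR-206 and miR-133b form the pair that is largely kept to skeletal muscle, and miR-206 also acts in muscle after loss of the nerve. miR-133b has also been studied in dopamine neurons of the midbrain.

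The mature sequences of the miR-206 and miR-133b pair are shown because the genes of these members lie side by side in the genome and both miRNAs are set against cerebellum genes below. They come from RefSeq on build GRCm38.p6 and are written 5′ to 3′ with the seed in capitals. The array names miR-206 and miR-133b stand for the 3p arms, and the 5p arms are the ones the array names with a star.

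miR-206-3p: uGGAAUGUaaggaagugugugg
miR-133b-3p: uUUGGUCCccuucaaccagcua
miR-206-5p: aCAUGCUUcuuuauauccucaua
miR-133b-5p: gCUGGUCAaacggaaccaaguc

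miR-206-3p lies at chr1:20679055-20679076 and miR-133b-3p at chr1:20682834-20682855, both on the plus strand. Their hairpin genes, Mir206 and Mir133b, are separated by 3686 bases. The seeds of the 3p arms, GGAAUGU and UUGGUCC, differ, so both belong to different seed families in spite of their shared place in the genome.

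A level is given here as the mean signal of a miRNA's 2 probes relative to the array's 75th percentile, for which the 402 probes found well above background throughout the 24 arrays were used. It is given on the log2 scale, or as a percentage of that percentile. Lower levels were raised to a floor of 1.97% of the percentile, or -5.67 on the log2 scale. A miRNA counted as detected on an array if at least 1 of its probes was well above background. Levels of different miRNAs were not set against each other, since each probe binds its miRNA with its own strength.

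The 75th percentile signal ranged from 351 to 1604 between arrays, and 239 to 382 mouse miRNAs were detected per array. The miRNA arrays lay on 4 slides and the mRNA arrays on 3. One sample stood apart from its label. In replicate 2 of the 17-month-old WT cortex, the mean log2 level of 17 cerebellum genes was -0.29, against -2.94 to -1.87 in the other 11 cortex samples. Gabra6, the GABA-A receptor subunit of cerebellar granule cells, was at 0.16 there and at -8.01 to -3.26 in the others. These genes were read on the mRNA array, and the miRNA array of the same number is taken to be the same sample. The members' results that use this sample are given with and without it. The mouse App probe did not pass the test between genotypes in any of the 4 comparisons, with log2 differences from -0.02 to 0.25, and whether it binds the human transgene was not tested.

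miR-1, miR-133a and miR-133b were detected on all 24 arrays, and miR-206 on 4. All were dim. The mean signal of the probes of miR-1 was 21.9 to 73.5 in the cortex and 49.3 to 169 in whole brain. In the cortex, the dimmer of the 2 probes of miR-1 was above background on 0 of 12 arrays, and in whole brain on 6 of 12. Both probes of miR-133b were above background on 1 of 12 cortex and 8 of 12 whole brain arrays. For miR-133a these numbers were 0 and 1. The signal of these members therefore rested mainly on 1 of their probes. The star arms of the members were detected on 0 arrays. No probe of a member was saturated.

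mmu-miR-1 was at -3.66, -3.74 and -3.53 in the 10-month-old cortex of WT mice and at -3.76, -3.77 and -3.70 in that of Tg2576 mice, on the log2 scale. In the 17-month-old cortex, its levels were -3.67, -4.00 and -3.47 in WT mice and -3.09, -3.01 and -3.56 in Tg2576 mice. The first and second Tg2576 samples of this age were above every other cortex sample, whereas the third fell among the WT samples. In 10-month-old whole brain, the levels were -3.45, -3.26 and -3.39 in WT and -3.33, -3.38 and -3.25 in Tg2576 mice. At 17 months they were -3.13, -3.27 and -2.85 in WT and -3.12, -3.19 and -3.21 in Tg2576 mice. Within whole brain the genotypes overlapped at both ages.

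The order of the group means of miR-1, from the highest, was WT whole brain at 17 months (-3.08 ± 0.21, SD, n = 3), Tg2576 whole brain at 17 months (-3.17 ± 0.04), Tg2576 cortex at 17 months (-3.22 ± 0.30), Tg2576 whole brain at 10 months (-3.32 ± 0.07), WT whole brain at 10 months (-3.37 ± 0.10), WT cortex at 10 months (-3.65 ± 0.11), WT cortex at 17 months (-3.72 ± 0.27) and Tg2576 cortex at 10 months (-3.74 ± 0.04). Neighbours in this order overlapped sample by sample at every step except between WT whole brain and WT cortex at 10 months.

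mmu-miR-133a had log2 levels of -5.11, -5.18 and -5.10 in the 10-month-old WT cortex and of -5.28, -5.31 and -5.32 in that of Tg2576 mice. In the 17-month-old cortex they were -5.31, -5.34 and -4.96 in WT and -4.46, -4.40 and -5.23 in Tg2576 mice. The same Tg2576 samples as for miR-1 stood high. In whole brain at 10 months, miR-133a was at -4.95, -4.68 and -4.93 in WT and -4.95, -4.98 and -4.72 in Tg2576 mice. At 17 months it was at -4.58, -4.60 and -4.33 in WT and -4.60, -4.68 and -4.76 in Tg2576 mice. WT and Tg2576 mice did not overlap at 10 months in the cortex or at 17 months in whole brain, by narrow margins in both.

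Group means of miR-133a ran from -4.50 ± 0.15 (SD, n = 3) in WT whole brain at 17 months down to -5.30 ± 0.02 in Tg2576 cortex at 10 months. The 4 whole brain means lay between -4.88 and -4.50 and 3 of the 4 cortex means between -5.30 and -5.13. The fourth, of the 17-month-old Tg2576 cortex, was -4.70 ± 0.46 and lay among the whole brain means.

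mmu-miR-133b was at -4.14, -4.22 and -4.07 in the 10-month-old WT cortex and at -4.28, -4.39 and -4.30 in that of Tg2576 mice. At 17 months the cortex levels were -4.27, -4.14 and -3.94 in WT and -3.38, -3.32 and -4.09 in Tg2576 mice. Again 2 of the 3 Tg2576 samples were above every WT sample. Whole brain levels at 10 months were -3.86, -3.45 and -3.73 in WT and -3.80, -3.99 and -3.34 in Tg2576 mice. At 17 months they were -3.53, -3.47 and -3.14 in WT and -3.62, -3.66 and -3.73 in Tg2576 mice. The samples of 10-month-old Tg2576 whole brain spanned all the WT samples of that age.

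The group means of miR-133b were, from the highest, -3.38 ± 0.21 (SD, n = 3) in WT whole brain at 17 months, -3.59 ± 0.43 in Tg2576 cortex at 17 months, -3.67 ± 0.06 in Tg2576 whole brain at 17 months, -3.68 ± 0.21 in WT and -3.71 ± 0.33 in Tg2576 whole brain at 10 months, -4.12 ± 0.17 in WT cortex at 17 months, -4.14 ± 0.07 in WT and -4.32 ± 0.06 in Tg2576 cortex at 10 months. In this order, WT and Tg2576 cortex at 10 months were the only neighbours that did not overlap.

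mmu-miR-206 was detected on 0 of 12 cortex arrays, where its level ran from -0.155% to 1.11% of the 75th percentile, the highest being the WT cortex sample with cerebellum genes. In whole brain it was detected on 4 of 12 arrays. These were replicate 3 of the 10-month-old Tg2576 mice at 2.94%, replicate 3 of the 17-month-old WT mice at 2.78%, and replicate 2 of the 17-month-old and of the 10-month-old WT mice at 1.54% and 1.52%. Only the first of these pairs exceeded the floor of 1.97%, and both probes were above background on 1 array. The 8 other whole brain samples lay between 0.00393% and 0.772%. High samples of miR-206 thus occurred in 3 groups, 1 sample of each at most being above the floor. Since only 2 arrays rose above the floor, no fold is given for miR-206.

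**Figure D1:**
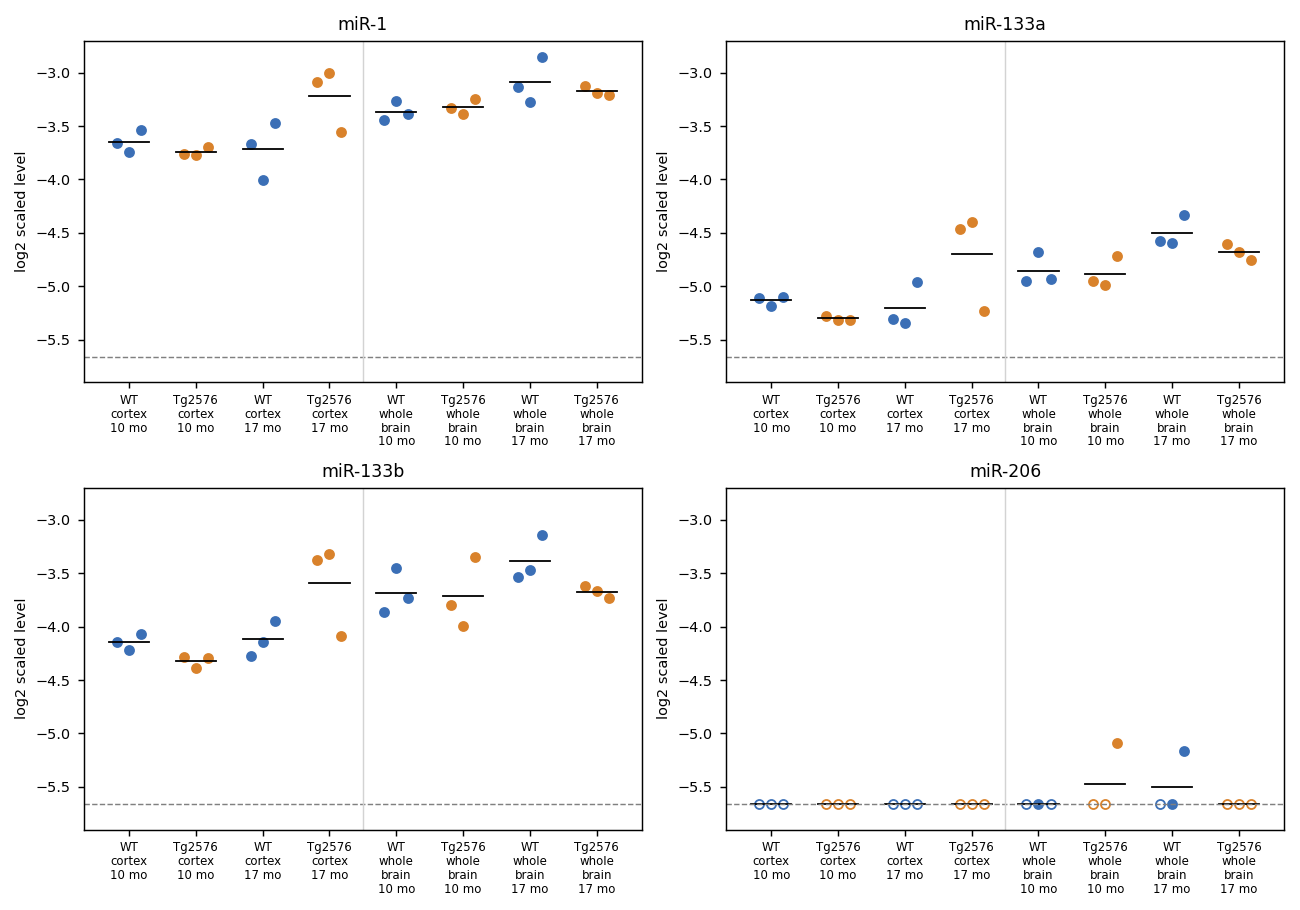
Log2 scaled level of each miRNA in the 8 groups, with WT in blue, Tg2576 in orange, cortex left and whole brain right of the grey line (mo, months of age). Each point is a sample, filled where the miRNA was detected, each black bar is a mean of 3, and the dashed line is the floor of -5.67; miR-206 rose above it in 2 whole brain samples.

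The first question was whether the levels differed between cortex and whole brain. miR-1, miR-133a and miR-133b were lower in the cortex. miR-1 ranged from -4.00 to -3.01 with a median of -3.67 over the 12 cortex samples, and from -3.45 to -2.85 with a median of -3.25 over the 12 whole brain samples. miR-133a ranged from -5.34 to -4.40 in the cortex and from -4.98 to -4.33 in whole brain, and miR-133b from -4.39 to -3.32 and from -3.99 to -3.14. The tissues overlapped for each member. By limma with genotype and age as covariates, miR-1 was 1.27-fold lower in the cortex (log2 difference -0.35, SE 0.08, 95% interval -0.51 to -0.18, adjusted p = 0.0072). miR-133a was 1.28-fold lower (-0.35, SE 0.09, interval -0.55 to -0.16, adjusted p = 0.0186) and miR-133b 1.35-fold lower (-0.43, SE 0.11, interval -0.66 to -0.21, adjusted p = 0.0145). All 3 tested members passed, where 13.4% of the 372 miRNAs tested were called, 7.8% lower and 5.65% higher in the cortex, and the tissues did not overlap for 0.538%. Of the 372, 93 were at the floor on every array and could neither be called nor fail to overlap. So were 11 to 101 miRNAs in each of the other comparisons below. The shares over all miRNAs tested thus understate those among miRNAs that vary. Genes of some other regions, though not of all, were lower in the cortex beside the 3 members. For cerebellum genes the median log2 difference was -0.83, with 12 of 17 called lower and 1 higher, and for brainstem and spinal cord genes -1.33, with 4 of 6 called lower, where 20% of all genes were called lower and 13.6% higher. Without the WT cortex sample that held cerebellum genes these medians were -0.86 and -1.28. In that fit striatum genes went the other way, with a median of 0.44, 9 of 12 called higher and 0 lower. Hippocampus genes had a median of 0.065, with 2 of 9 called higher and 1 lower. The part of these regions in the tissue differences was not tested. miR-206 was not detected in the cortex and is described without a test.

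The tissue differences depended on the slide. With slide as a block they were -0.07 for miR-1 (adjusted p near 1), -0.11 for miR-133a (0.985) and -0.17 for miR-133b (0.828), and on the slide with 4 samples of each tissue the cortex was higher by 0.074, 0.12 and 0.031. On that slide the cortex samples were 17 months old and the whole brain samples 10 months old. On another slide, with 1 sample of each tissue, the cortex differed by -0.26, -0.51 and -0.60. Without the WT cortex sample with cerebellum genes, the differences were -0.30 for miR-1, -0.32 for miR-133a and -0.41 for miR-133b, with limma adjusted p of 0.0089, 0.0292 and 0.0241. With the deposited log2 values the differences stayed at -0.34, -0.34 and -0.42 but missed the threshold (limma adjusted p = 0.064, 0.093 and 0.081). With quantile normalization they were -0.27, -0.26 and -0.34 (adjusted p = 0.062, 0.191 and 0.0999), and after normexp background correction the sign turned for all 3 and 1 was called, while the median of all miRNAs tested moved to 0.27.

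The next question, that of the series, was whether Tg2576 mice differed from WT mice. In none of the 4 comparisons did limma call a member, and the same holds for all miRNAs tested. The methods' t-test also called 0 after adjustment in each, with 23, 31, 14 and 18 miRNAs at an unadjusted p under 0.05 in the cortex at 10 and 17 months and in whole brain at 10 and 17 months. At 10 months in the cortex, 0% of 315 miRNAs were called, 20 having an unadjusted limma p under 0.05. miR-1 differed by -0.10 between Tg2576 and WT mice (SE 0.07, adjusted p = 0.969, limma). miR-133a differed by -0.17 (SE 0.05, adjusted p = 0.491) and miR-133b by -0.18 (SE 0.06, adjusted p = 0.637, limma). For both miR-133 members each Tg2576 sample was below each WT sample, which 11.4% of the miRNAs tested also showed in 1 direction or the other. In these samples, genes of the olfactory bulb had a median log2 difference of 1.81 in Tg2576 cortex (0 of 12 called), and their part in the result was not tested.

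In the 17-month-old cortex, the levels of Tg2576 mice were higher by 0.50 for miR-1 (interval 0.037 to 0.96), 0.51 for miR-133a (-0.071 to 1.08) and 0.53 for miR-133b (0.0014 to 1.05). The adjusted p-values by limma were 0.305, 0.392 and 0.333, where 0% of 253 miRNAs were called and 37 had an unadjusted p under 0.05. The genotypes overlapped for the 3 members and did not for 22.1% of the miRNAs. The members ranked 8, 7 and 6 from the top of the 253 differences. Replicate 3 of the Tg2576 mice was low for each of the 3, and without it the differences were 0.67, 0.77 and 0.77, with adjusted p of 0.174, 0.092 and 0.056. Without the WT sample that held cerebellum genes they were 0.35, 0.44 and 0.51 (adjusted p = 0.477, 0.525 and 0.477, limma). On the slide that holds all 3 Tg2576 samples and 1 WT sample, they were 0.25, 0.27 and 0.35. With the 75th percentile taken over all probes, limma called all 3 and 159 of the 253 miRNAs, the median of which moved to 0.47. Thalamus genes were also higher in these Tg2576 mice, with 0 of 12 called. Their median log2 difference was 0.55, and 0.79 without the WT sample that held cerebellum genes. In the latter fit choroid plexus genes had a larger median, 1.06, and meningeal fibroblast genes were lower, at -0.48, with 0 of 12 called in each list. The part of these genes in the result was not tested.

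In whole brain at 10 months, the differences between Tg2576 and WT mice were 0.047, -0.030 and -0.029 for miR-1, miR-133a and miR-133b, with 95% intervals of -0.14 to 0.23, -0.31 to 0.25 and -0.51 to 0.45. At 17 months the differences were -0.088 (-0.37 to 0.19), -0.18 (-0.40 to 0.048) and -0.29 (-0.57 to -0.013). At that age each Tg2576 sample was below each WT sample for miR-133a and miR-133b, as for 9.5% of the miRNAs. The limma adjusted p-values were near 1 for the 3 members at 10 months and for miR-1 at 17 months, and 0.792 and 0.775 for miR-133a and miR-133b at 17 months. At 10 months 0% of 368 miRNAs were called (19 with an unadjusted p under 0.05), and 10.3% did not overlap, and at 17 months 0% of 337 (17). Beside the lower miR-133b at 17 months stood lower cerebellum genes in the same mice, with a median log2 difference of -1.28 over the list (0 of 17 genes called), and the part of the cerebellum in the difference was not tested.

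The difference between genotypes was not shown to depend on age or tissue. In the cortex, the genotype difference at 17 months exceeded that at 10 months by 0.60 for miR-1, 0.68 for miR-133a and 0.70 for miR-133b, with limma adjusted p of 0.324, 0.361 and 0.324. At 17 months the genotype difference in whole brain fell below that in the cortex by 0.59, 0.69 and 0.82, with limma adjusted p of 0.251, 0.251 and 0.213.

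The effect of age was compared within each genotype and tissue. In the Tg2576 cortex, the 3 detected members were higher at 17 than at 10 months in each sample, by 0.53 for miR-1 (SE 0.15, interval 0.15 to 0.90), 0.61 for miR-133a (SE 0.23, 0.033 to 1.18) and 0.73 for miR-133b (SE 0.21, 0.19 to 1.26). They missed the threshold, with limma adjusted p of 0.093, 0.174 and 0.094, where 9.06% of 287 miRNAs were called, 1.74% higher and 7.32% lower. The ages did not overlap for these 3, and did not for 31% of the miRNAs. The members ranked 7, 4 and 3 among the 287 differences. Without replicate 3 of the 17-month-old mice they were 0.70, 0.87 and 0.97 (adjusted p of 0.0066, 0.0023 and 0.0023, limma), so 1 sample decided the call. Thalamus genes stood higher in the same samples, at a list mean of 0.19, 0.75 and -0.055 at 17 months against -0.61, 0.0037 and -0.29 at 10 months, with 1 of 12 genes called higher where 7.99% of all genes were. Their part in the difference was not tested. Each age lay on a slide of its own, so age and slide cannot be told apart.

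In the WT cortex, the log2 differences between the ages were -0.070 for miR-1, -0.071 for miR-133a and 0.024 for miR-133b, each with an adjusted p near 1 by limma, where 0% of 310 miRNAs were called, 10.3% did not overlap and 18 had an unadjusted p under 0.05. The methods' t-test called 0 after adjustment and also had 18 at an unadjusted p under 0.05. Without the sample that held cerebellum genes the differences were 0.074, -0.0019 and 0.036, so that of miR-1 turned its sign. After normexp background correction limma called all 3 members higher at 17 months, by 0.48, 0.72 and 0.59, together with 200 of the 310 miRNAs and a median of 0.43 over all.

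In WT whole brain, the older mice were higher by 0.28 for miR-1 (SE 0.12), 0.35 for miR-133a (SE 0.11) and 0.30 for miR-133b (SE 0.15). The adjusted p-values were 0.534, 0.377 and 0.646 by limma, which called 0.3% of 333 miRNAs. The ages did not overlap for miR-133a, which held for 12.3% of the miRNAs. No miRNA slide held both of these ages, and the older mice were on more than 1. No member was called with slide as a random block. Cerebellum genes were also higher in the older WT mice, with a median log2 difference of 0.85 and 3 of 17 genes called higher and 1 lower, and genes of the brainstem and spinal cord had a median of 1.38 with 3 of 6 called higher. Thalamus genes had a median of 0.43 with 5 of 12 called higher. Their list mean lay between -0.14 and -0.089 at 10 months and between 0.13 and 0.37 at 17 months, with no overlap. The ages also did not overlap for 48.9% of the 37639 mRNA probes tested. On the mRNA arrays each of these ages lay on its own slide, so age and slide cannot be told apart. Over all genes, 30.3% were called, 19.3% higher and 10.9% lower, so the share of cerebellum genes called was below that of all genes. Their part in the levels of the miRNAs was not tested. In Tg2576 whole brain, the differences were 0.15, 0.20 and 0.040 with adjusted p near 1 for all 3 by limma, which called 0% of 368 miRNAs, 18 having an unadjusted p under 0.05 (20 by the methods' t-test, which called 0 after adjustment). The ages did not overlap for miR-1, as for 7.61% of the miRNAs.

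**Figure D2:**
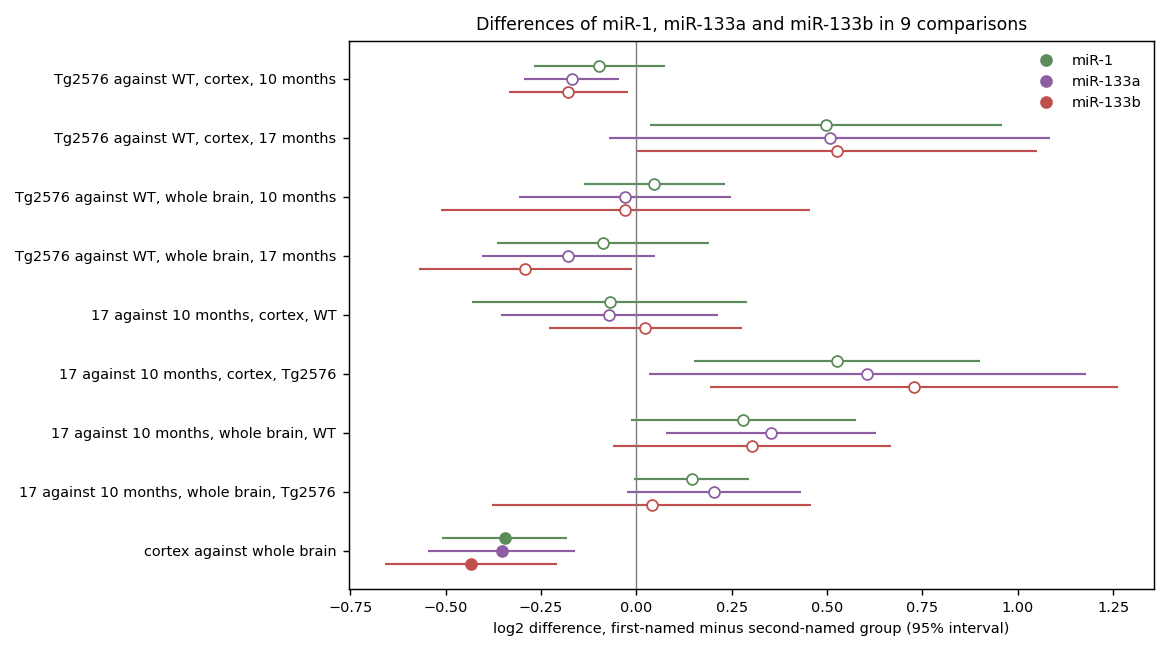
Log2 differences of miR-1, miR-133a and miR-133b in the 9 comparisons on the x axis, with 95% intervals from limma. Filled points passed an adjusted p of 0.05, which only the 3 points of cortex against whole brain did, at -0.35, -0.35 and -0.43.

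Whole brain samples differed in how much cerebellum RNA they held. The cerebellum list comprised 17 genes, among them Gabra6 and Cbln3 of granule cells, Cbln1, the synapse organizer that granule cells release, Pcp2 and Car8 of Purkinje cells, and the transcription factors Zic1, Zic2, Zic4 and En2. Gabra6 alone ranged from -7.10 to 1.68 over the 12 whole brain samples and Pcp2 from -0.79 to 4.69. The mean of the list was -1.68, -0.53 and -1.20 in WT and -1.74, -2.49 and 0.20 in Tg2576 whole brain at 10 months. At 17 months it was -0.92, -0.29 and 0.45 in WT and -1.46, -2.19 and -1.21 in Tg2576 mice. In bulk tissue, fewer cells of a type and less RNA per cell cannot be told apart.

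The samples with the most cerebellum RNA were those in which miR-206 was detected. The 4 highest cerebellum means, 0.45, 0.20, -0.29 and -0.53, belonged to the samples with miR-206 at 2.78%, 2.94%, 1.54% and 1.52%, in that order. No sample with a lower cerebellum mean had miR-206 detected by the rule used here. The scanner software's own call also marked it as detected in the WT samples with means of -0.92 and -1.20. Over the 12 whole brain samples, the log2 level of miR-206 and the cerebellum mean had a Pearson r of 0.72 and a Spearman rho of 0.64, and, with a floor 4 times lower, 0.93 and 0.96. This relation was the reason for looking at miR-206 and is given as a description. With the group means removed r was 0.82, and within the slide that holds 7 of the samples it was 0.86. Without 1 sample at a time r was 0.585 to 0.792. Without the 2 samples farthest from the median cerebellum level no r exists, since all remaining values are at the floor, so with this floor the relation rests on 2 samples.

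Of the cerebellum genes, 13 of 17 had an r over 0.5 with miR-206 in whole brain, or 76.5%, against 2.12% of all 15626 genes. The median r was 0.66 over the list and 0.0067 over all genes. miR-206 was chosen by its relation to cerebellum genes, so these values are a description and no support for that relation. Each r also rests on the same few samples above the floor. Fat2 and Cbln1 had an r of 0.75, Zic1 of 0.72, Pcp2 of 0.69 and Gabra6 of 0.58. The 5 genes with the highest r over these 12 samples were Cep76 (0.93), Zfhx2os (0.83), Mybpc3 (0.83), Mapk12 (0.82) and Arhgef33 (0.82). Il20rb of the cerebellum list followed at 0.81.

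miR-133b, the neighbour of miR-206 in the genome, was related to the cerebellum genes over the 12 samples, although not in every step of their order. It was highest, at -3.14 and -3.34, in the samples with the highest cerebellum means and lowest, at -3.99, in the sample with the lowest. Pearson r was 0.91 (permutation p = 5.0e-05, adjusted p = 0.0012 over 24 relations) and Spearman rho 0.88 (adjusted p = 0.0084, permutation test). With group means removed, r was 0.91 and the adjusted p 0.0012 by permutation. That permutation moved values freely between groups after their means were taken out, which makes its p too small. Without the 2 samples farthest from the median cerebellum level, r was 0.83 with a permutation adjusted p of 0.0946. Within the slide with 7 of the samples it was 0.92, and without 1 sample at a time at least 0.88. After normexp correction r was 0.43 and after scaling by all probes 0.74, neither passing the test.

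miR-133a and miR-1 followed the cerebellum genes less closely. miR-133a had an r of 0.68 and a rho of 0.69 (permutation adjusted p = 0.158 and 0.111). With group means removed its r was 0.77. The permutation adjusted p of 0.0292 there is too small for the reason given above, so it is not read as a pass. miR-1 had an r of 0.54 and a rho of 0.36 (permutation adjusted p = 0.257 and 0.411). Whether the r of one member differs from that of another was not tested. The miRNAs ranked were the 271 detected on at least 2 whole brain arrays and not at the floor on all of them. Among these, miR-133b had the highest r with the cerebellum genes, ahead of miR-28 (0.87) and miR-192 (0.76). miR-206 ranked 5, miR-133a 7 and miR-1 11. The rank of miR-206 is a description only, since miR-206 was chosen by this relation and most of its values are at the floor.

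In the cortex no relation was seen, with an r of -0.48 for miR-1, -0.27 for miR-133a and -0.13 for miR-133b against the cerebellum genes and permutation adjusted p of 0.341, 0.612 and 0.697. The cortex sample with cerebellum genes had the lowest miR-1 of the cortex, at -4.00, and a miR-133b of -4.14, which is the median of the cortex. It was 1 of the 2 samples left out when the samples farthest on the x axis were removed, after which r was -0.18, -0.17 and -0.18.

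**Figure D3:**
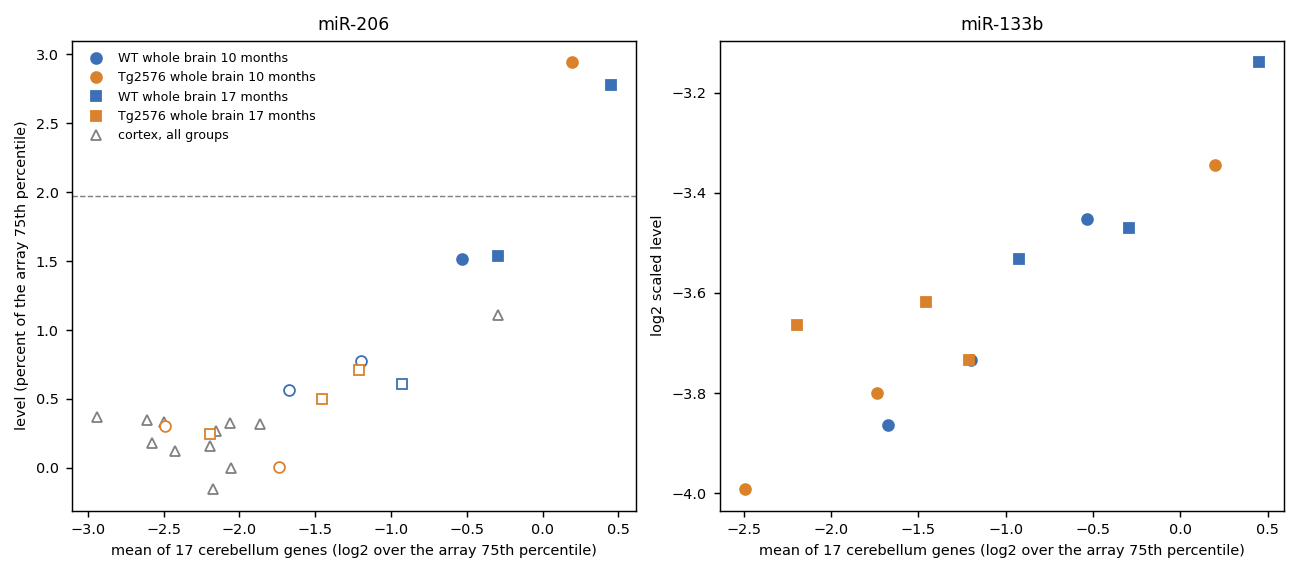
Level of miR-206 in percent of the array's 75th percentile (left, all samples) and log2 level of miR-133b (right, whole brain only) against the mean log2 level of 17 cerebellum genes in the sample of the same group and replicate number. Each point is a sample, filled on the left where miR-206 was detected, and the dashed line is the floor of 1.97%; the 4 detected samples have the 4 highest cerebellum means of whole brain.

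Genes of other regions were set beside the cerebellum list as a description over the same 12 whole brain samples. miR-1 and miR-133a had their highest r with other lists than the cerebellum. For genes of the thalamus r was 0.82 with miR-1, 0.83 with miR-133a, 0.53 with miR-133b and 0.11 with miR-206. For genes of the brainstem and spinal cord, of which 3 of 11 with a probe (Chat, Prph and Fev) were detected on all 24 arrays, r was 0.78, 0.83, 0.68 and 0.17. All lists were read on the same samples, so these values are not independent of each other.

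**Figure D4:**
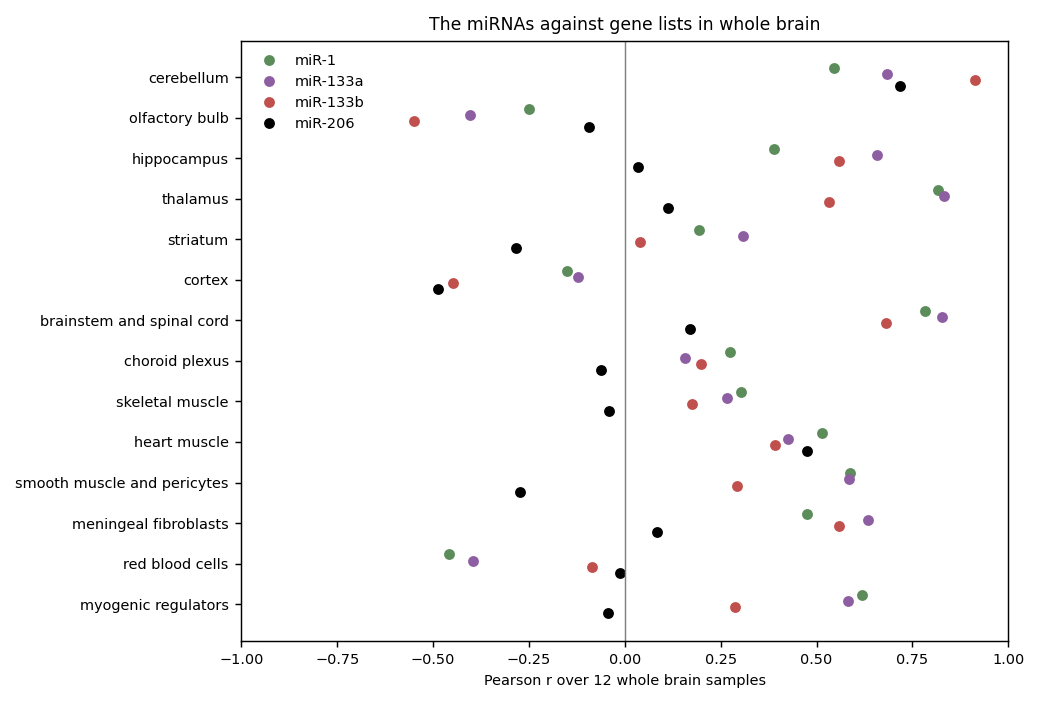
Pearson r of each miRNA with the mean log2 level of 14 gene lists over the 12 whole brain samples; each point is 1 miRNA and 1 list. miR-133b and miR-206 have their highest r with cerebellum genes (0.91 and 0.72), miR-1 and miR-133a with genes of the thalamus (0.82 and 0.83). miR-206 was chosen by its relation to cerebellum genes, so its value is a description only.

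Over all 24 arrays, the 3 detected members moved together. The Pearson r was 0.96 between miR-1 and miR-133a, 0.96 between miR-133a and miR-133b and 0.92 between miR-1 and miR-133b. miR-206 had an r of 0.49 with miR-133b, 0.37 with miR-1 and 0.36 with miR-133a. Within whole brain, r between miR-206 and miR-133b was 0.71. All share the arrays and the scaling, so r between miRNAs holds those too.

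The 290 other miRNAs detected on at least 12 of the 24 arrays were ranked by their r with each member. miR-34a came first for miR-1 (r = 0.86), miR-133a (0.88) and miR-133b (0.90). miR-219-3p followed with 0.83, 0.88 and 0.87, and miR-219-5p with 0.83, 0.84 and 0.77. The next for miR-1 were miR-100 (0.77) and let-7g (0.74), for miR-133a miR-100 (0.77) and miR-598 (0.74), and for miR-133b miR-598 (0.76) and miR-338-3p (0.72). miR-206 was most like miR-194 (0.71), miR-582-5p (0.59), miR-374c (0.52), miR-544-5p (0.51) and miR-26b (0.51), lower values that rest on its 2 samples above the floor.

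Since these miRNAs are known from muscle, muscle genes were read on the mRNA arrays. Of 16 skeletal muscle genes, 10 were detected on all 24 arrays and 3 on none, namely the muscle creatine kinase Ckm, the fast myosin light chain Mylpf and the Z-disc protein Myot. The mean of the list lay between -3.56 and -3.06 in all 24 samples. Its 4 highest genes were Eno3, the muscle enolase (mean 1.35 in the cortex and 1.32 in whole brain), Myl1, Acta1 and Tnnc2, none of which passed the test between tissues. Of 13 skeletal muscle genes tested between tissues, limma called 1 (Atp2a1, the calcium pump of fast muscle, higher in the cortex), with a median difference of 0.05, where 33.5% of all genes were called. Of the myogenic regulators, Myog and Myf5 were detected on 0 arrays and Myod1, the regulator that starts the muscle programme, on 4.

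Genes of vessel walls were present. Of 17 genes of smooth muscle and pericytes, 14 were detected on all 24 arrays and Lmod1 on none. Myl9, the smooth muscle myosin light chain, had a mean of 2.72 in the cortex and 2.69 in whole brain, and Tagln, Rgs5 and Higd1b differed between tissues by -0.01, -0.03 and -0.06. Between tissues 3 of 16 genes were called higher and 3 lower in the cortex, against 13.6% and 20% of all genes. In whole brain, the list had an r of 0.59 with miR-1, 0.59 with miR-133a and 0.29 with miR-133b (permutation adjusted p = 0.257, 0.257 and 0.612). Skeletal muscle genes had an r of 0.30, 0.27 and 0.17, and red blood cell genes of -0.46, -0.39 and -0.08. None of these passed the permutation test. Of heart muscle genes 8 of 10 were detected on all arrays, led by Tnnt2, Tnnc1, Nppa and Myl2, and 2 of 8 tested were called lower in the cortex, near the share of all genes, with Myl2 at -0.16.

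Finally, known targets of the members were taken from lists of 26 genes for miR-1 and miR-206 and 25 for miR-133. Between genotypes, limma called 0 genes of either list in any of the 4 comparisons, as it called 0% of all genes, although 3625 to 4803 of 36978 to 39628 probes had an unadjusted p under 0.05. The methods' t-test called 0 after adjustment in each. The medians of the lists lay between -0.05 and 0.03.

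With age, calls occurred in both lists. In WT whole brain, 9 of 25 targets of miR-1 and miR-206 were higher at 17 months and 4 lower, where 30.3% of all genes were called, 19.3% higher and 10.9% lower. Notch3, the receptor of vessel smooth muscle, was higher by 1.12 (SE 0.07, adjusted p = 0.0039, limma), Pax7 by 0.82 and Pax3 by 0.77. The potassium channel gene Kcnj2 was lower by -0.77, the sodium-calcium exchanger Slc8a1 by -0.65 and the DNA polymerase subunit Pola1 by -0.53. Of 25 targets of miR-133, 7 were higher and 0 lower, led by the adrenergic receptor Adrb1 (0.86), the potassium channel Kcnh2 (0.83) and the mitochondrial carrier Ucp2 (0.60).

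In Tg2576 whole brain, where 16% of all genes were called, 3 targets of miR-1 and miR-206 rose (Notch3 by 0.93, the deacetylase Hdac4 by 0.52 and the transketolase Tkt by 0.40) and 3 fell (Pola1 by 0.70, the neurotrophin Bdnf by 0.58 and Rasa1 by 0.57 on the log2 scale). The targets of miR-133 that rose were Ucp2 (0.98), Kcnh2 (0.92) and Tagln2 (0.70), and 0 fell. In the Tg2576 cortex (11.2% of genes called), Pax7, which was not detected on every array, rose by 2.58, Notch3 by 0.91 and Tkt by 0.57. Igf1 fell by 0.60, Met by 0.31 and Hsp90b1 by 0.30. Ucp2 (0.95), Kcnh2 (0.71) and Tagln2 (0.57) were again the targets of miR-133 that rose there. In the WT cortex (5.95% of genes called), Notch3 rose by 0.87, Kcnj2 fell by 0.59 and Kcnh2 rose by 0.97. Without the WT cortex sample that held cerebellum genes none of the 3 passed, at 0.84, -0.52 and 0.86 (limma adjusted p = 0.075, 0.085 and 0.075). Notch3 and Kcnh2 were thus higher at 17 months in all 4 pairs of groups. In 3 of those pairs the calls were fragile, as 0 target genes were called in at least 1 setting that left out a sample. In the Tg2576 cortex and in WT whole brain each age lay on its own mRNA slide, so age and slide cannot be told apart.

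Between tissues, 11 of 25 targets of miR-1 and miR-206 were lower and 2 higher in the cortex, where 20% and 13.6% of all genes were. Pax3 was lower by -1.01, Pax7 by -0.90 and Tkt by -0.34, and Kcnj2 (0.32) and Rheb (0.16) were higher. Of 25 targets of miR-133, 4 were higher and 5 lower, with Egfr (0.21), Klf15 (0.20) and Rhoa (0.12) leading one way and the transcription factor Sp1 (-0.36), Ucp2 (-0.30) and Tagln2 (-0.23) the other. With slide as a block 0 target genes were called, and without the WT cortex sample that held cerebellum genes the counts were 11 lower and 2 higher, and 4 higher and 5 lower, as before.

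**Figure D5:**
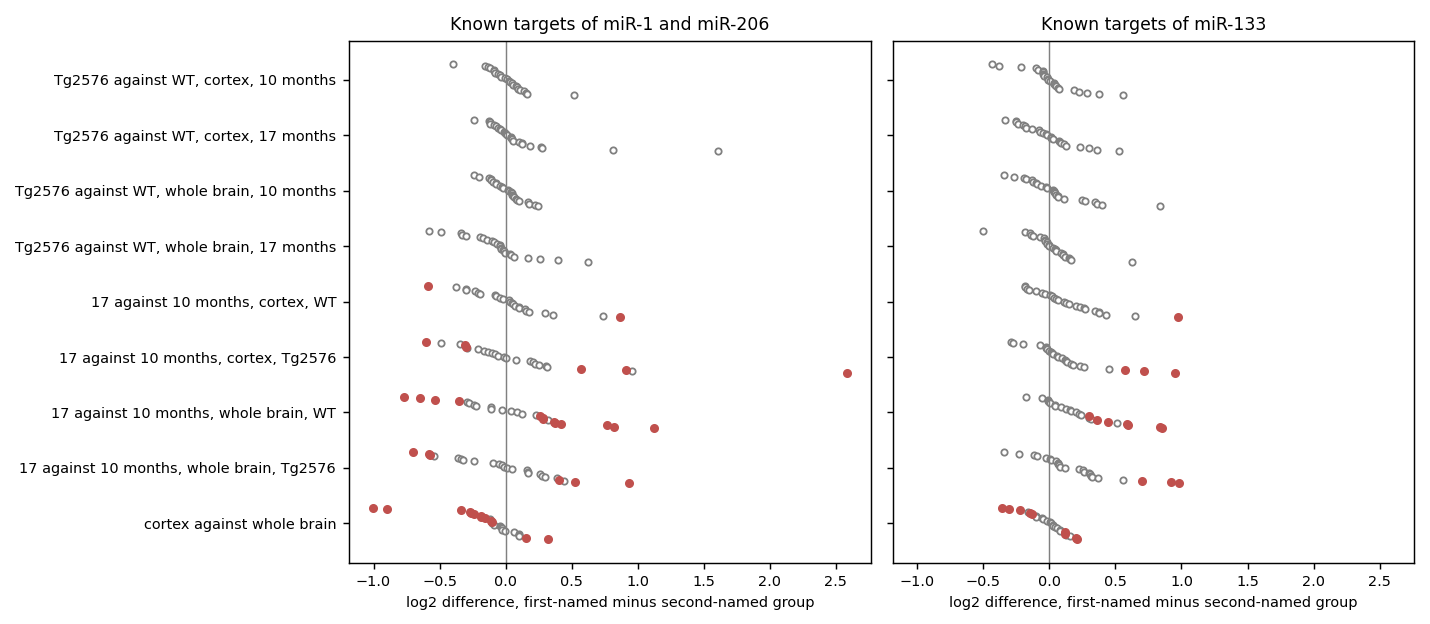
Log2 differences of known target genes of miR-1 and miR-206 (left) and of miR-133 (right) in the 9 comparisons; each point is a gene, and red points passed a limma adjusted p of 0.05. No gene passed between Tg2576 and WT mice, and with age in WT whole brain 13 of 25 and 7 of 25 did.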

How the data were processed

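Total RNA was hybridised by the authors to 1-colour Agilent miRNA and mRNA arrays. The deposited files hold scanner intensities from Agilent Feature Extraction 10.7.3.1, background-subtracted, and the authors' log2 values. On miRNA arrays 100% of these lay within 0.01 of the log2 total gene signal minus a constant per array, and on mRNA arrays 99.8% within 0.01 of the log2 intensity minus such a constant. Replicate numbers are those of the labels. Nothing says that samples come from separate mice, so p-values measure the spread between samples.

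Here miRNA intensities were averaged over probes, divided by each array's 75th percentile and floored. mRNA log2 intensities were scaled by the array's 75th percentile over all probes, with the brightest of a gene's probes used for the gene. Features found on 2 or more of a group's arrays were tested with limma 3.58.1 in R 4.3.3 (Benjamini-Hochberg, adjusted p under 0.05, over all features). Relations across samples used 100000 permutations, two-sided, and paired miRNA with mRNA samples by group and number. That arrays paired in this way share a sample was assumed. Scripts were tested on simulated data, where a log2 change of 1 was recovered for 76.5% to 100% of miRNAs over the comparisons. For mRNA probes the share was 55.1% to 96.0%. Changes smaller than 1, as the members' differences are, were not simulated, nor was an effect of slide. The members, gene lists and tests were chosen with earlier results of these data known. Non-members named are the 3 target genes with the largest rise and fall past the threshold, the 4 highest genes of other lists, the cerebellum genes, App, and the 5 features most like a member. Atp2a1 and the undetected muscle genes were named after their values were seen. The mature sequences of miR-1 and miR-133a are not shown. The values of 1 gene of the cerebellum list are not reported here.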

Additional observations from a re-analysis of the deposited data

How the results depend on the processing

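The lower miR-1, miR-133a and miR-133b in the cortex were the only calls among the members. They held with a floor 4 times lower, with the replicate number as a block (3 called), with the methods' t-test (3 called after adjustment) and without any 1 sample. Without a filter on detection 2 held. They were lost with quantile normalization, the 75th percentile over all probes, the authors' log2 values and slide as a block (0 called each), while normexp left 1 called, miR-133a, with the sign turned to 0.27 (miR-1 0.060, miR-133b 0.079). The cause was not tested. The differences stayed at -0.34, -0.34 and -0.42 with the authors' log2 values and shrank to -0.070, -0.11 and -0.17 with slide as a block. miR-206 was above the floor on 2 arrays only.

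With the 75th percentile over all probes, 3 members were called between genotypes in the 17-month-old cortex and 3 between ages in the Tg2576 cortex, and normexp called 3 between ages in the WT cortex. Scaling moved the median of all miRNAs tested as well, by up to 0.47. Leaving out 1 sample at a time gave 0 to 3 members called with age in the Tg2576 cortex, 3 being without replicate 3 of the 17-month-old mice.

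Signs of member differences far from the threshold also turned. With all probes, Tg2576 whole brain with age gave -0.086 (miR-1), -0.028 (miR-133a) and -0.19 (miR-133b), genotype in 10-month-old whole brain 0.011 (miR-133a) and 0.012 (miR-133b), and WT cortex with age -0.022 (miR-133b). With normexp, WT cortex with age gave 0.48 (miR-1) and 0.72 (miR-133a), genotype at 10 months 0.15, 0.27 and 0.17 in the cortex and -0.11 (miR-1) in whole brain, and genotype in the 17-month-old cortex -0.16 (miR-133a) and -0.020 (miR-133b). Quantile normalization gave -0.015 for miR-1 by genotype in 10-month-old whole brain and -0.018 for miR-133b with age in Tg2576 whole brain. The authors' log2 values gave -0.028 (miR-1) and 0.068 (miR-133a) by genotype in 10-month-old whole brain and -0.21 (miR-133b) with age in the WT cortex. Slide as a block gave -0.027 (miR-133b, WT cortex with age) and -0.00442 (miR-133b, Tg2576 whole brain with age), and, between tissues, -0.029 for Rheb, -0.00742 for Egfr and 0.18 for Sp1. Leaving out 1 sample at a time, the differences that changed sign ran from -0.11 to 0.059 (miR-133a) and -0.21 to 0.11 (miR-133b) by genotype in 10-month-old whole brain, -0.18 to 0.029 (miR-1) by genotype in 17-month-old whole brain, -0.19 to 0.074 (miR-1) and -0.064 to 0.10 (miR-133b) with age in the WT cortex, and -0.10 to 0.22 (miR-133b) with age in Tg2576 whole brain.

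Counts of target genes called with age, against 3, 9, 20 and 9 in the WT cortex, Tg2576 cortex, WT whole brain and Tg2576 whole brain, were 0, 0, 10 and 0 with the replicate block. Same-numbered samples did not deviate together in every pair of any comparison, so the numbers are not taken as pairs. Without a filter they were 0, 0 and 7 in the first 3. Normexp gave 14 in the Tg2576 cortex and 15 in Tg2576 whole brain, slide as a block 0 in the WT cortex, and the methods' t-test 1 in the WT cortex and 12 in WT whole brain. Without 1 sample at a time they ran from 0 to 0, 0 to 3, 10 to 18 and 0 to 7. Between tissues, 22 were called, 0 with slide as a block and 13 with the methods' t-test.

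Of the 24 relations 1 passed, 0 with all probes, 3 with normexp, 2 with group means removed and 0 without the 2 farthest samples. The count with group means removed uses permutation p-values that are too small, as said above. The r of miR-206 with cerebellum genes was 0.32 with normexp, 0.90 with the authors' log2 values and 0.93 with a floor 4 times lower. The tissue fit without the miRNA slide that held 1 sample of each tissue (3 called) was chosen after seeing the data. So were the r of miR-133b within 1 slide and the gene lists without 1 WT cortex sample. Slide as a block could not be fitted with age in the Tg2576 cortex, nor on mRNA arrays with age in WT whole brain or by genotype in 10-month-old cortex and 17-month-old whole brain.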
